A study of Mus musculus with 12 samples.

Results

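The 10 effector genes of cytotoxic lymphocytes described here were Gzma, Gzmb, Gzmk, Prf1, Nkg7, Ifng, Tnf, Ccl5, Fasl and Pdcd1, of 27998 genes counted in dissociated cells of the mouse mammary gland. They were chosen by symbol, with earlier results of these data known, and all 10 were found in each of the 12 libraries. They were read in cells gated on marker genes, none of them a member: CD8 T cells (UMIs of Cd3d, Cd3e or Cd3g and of Cd8a or Cd8b1, and none of Cd4), CD4 T cells (the CD3 genes and Cd4, and neither CD8 gene) and NK cells (Ncr1, Klrb1c or Klre1, and no CD3 gene). The gates held 688 CD8 T cells, 872 CD4 T cells and 614 NK cells of 46257 cells that passed the filters.

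Cytotoxic lymphocytes carry granules that are released onto a target cell: perforin, encoded by Prf1, opens its membrane, and granzymes, the serine proteases encoded by Gzma, Gzmb and Gzmk, enter and cleave proteins there. Nkg7 encodes a protein of the granule membrane. Fasl encodes the ligand of the death receptor Fas, Ifng and Tnf encode the cytokines interferon gamma and tumor necrosis factor, and Ccl5 encodes a chemokine that draws leukocytes. Pdcd1 encodes PD-1, a receptor that restrains T cells after activation. In the mammary gland, T cells and NK cells lie in and around the ducts and in the stroma.

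All mice were C57BL/6J, 43 weeks old, and the vehicle was sesame oil. Every group but Intact received VCD (4-vinylcyclohexene diepoxide, 160 mg/kg/day over 15 days), which depletes the ovarian follicles. For all groups with VCD, 100 days from VCD to the diet were recorded. Of the 12 groups, 9 formed a full layout of hormone by PBDE level. The hormone was none, E2 (estradiol, 1 µg per animal and day) or E2 with P4 (progesterone, 1 mg per animal and day), each for 1 week. The PBDE level was none, the low dose for 20 weeks (0.05 mg/kg/day of PBDE-47, 0.0028 of PBDE-100 and 0.0063 of PBDE-153) or the high dose for 1 week (1, 0.056 and 0.126 mg/kg/day of the same congeners), so that dose and duration cannot be told apart. These groups were VCD_Vehicle, VCD_E2, VCD_E2_P4, VCD_Low_PBDE, VCD_Low_E2, VCD_Low_E2_P4, VCD_High_PBDE, VCD_High_PBDE_E2 and VCD_High_PBDE_E2_P4. The other 3 were Intact, VCD_Vehicle_NormEnv (no hormone, kept where PBDEs from cage plastic were possible) and VCD_E2_ICI (E2 with 5 mg of the estrogen receptor antagonist ICI, given once). Each group was 1 library, and how many animals a library pooled is not given in the sources used here.

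The libraries held 2497 to 10006 barcodes and 41737881 to 109224969 UMIs (unique molecular identifiers, each counting 1 captured RNA molecule). VCD_Low_E2_P4 had the most barcodes, and 51.4% of its cells with CD3 UMIs were over the limits set against doublets (median over the libraries 27.4%). Of all barcodes, 740 occurred in more than 1 library, among them 17 of the CD8 T cells, 13 of the CD4 T cells and 14 of the NK cells, and leaving these cells out changed no call of a member. Most of the sharing lay within sets of libraries, at 95 to 185 barcodes a pair among Intact, VCD_Vehicle, VCD_E2, VCD_E2_P4 and VCD_Low_PBDE, 84 for VCD_Low_E2 with VCD_Low_E2_P4 and 27 to 35 among VCD_Vehicle_NormEnv, VCD_High_PBDE and VCD_E2_ICI, against at most 20 in any other pair. The first set held every layout library without PBDE and no high-dose library, so that set and high dose cannot be told apart. The defining markers were present: Cd8b1 was seen in a median of 90.5% of CD8 T cells per library, Cd40lg in 65.9% of CD4 T cells, and Tyrobp and Fcer1g, which no gate used, in 98.0% and 100% of NK cells. Eomes and Klra8, also used by no gate, were seen in a median of only 46.1% and 41.3% of NK cells (41.2% and 0.549% of CD8 T cells). Whether the NK gate also held other innate lymphoid cells was not tested. No Cd8a, Cd8b1, Cd4 or Cd40lg UMI was seen in an NK cell, although their gate did not ask for this, and Klre1 was seen in a median of 30.8% of CD8 T cells. The gates themselves capped Cd79a of B cells and C1qa of macrophages, both at a median of 0 in the 3 classes. Of the macrophage genes that no gate used, Lyz2 had a UMI in a median of 17.8% of CD4 T, 15.5% of CD8 T and 9.55% of NK cells. Tyrobp and Fcer1g, shared by macrophages and NK cells, had one in 19.8% and 18.5% of CD4 T cells and in 16% and 13.6% of CD8 T cells. The collagen gene Col3a1 had a UMI in a median of 66.6%, 73.1% and 64.0% of CD8 T, CD4 T and NK cells, so RNA of the abundant fibroblasts was present in them.

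The promoters of the granule genes that the results turn on are given for orientation, since their genes were at very different levels in NK and CD8 T cells. Of the 10 genes, 9 had a promoter in the RefSeq table (GRCm38.p6), and Ccl5 did not. Shown are the 250 bases before the start of Gzma (chr13:113100982-113101231, minus strand), Gzmb (chr14:56262335-56262584, minus strand), Prf1 (chr10:61297586-61297835, plus strand) and Gzmk (chr13:113180966-113181215, minus strand), each read 5′ to 3′ along the gene. The starts are those of RefSeq. For Gzmb, the GENCODE M21 transcript starts at 56262260, downstream of the RefSeq start at 56262334. For Gzmk, GENCODE M21 has a transcript that starts close to it, at 113180897, and another that starts 44943 bases upstream of it, at 113225908, so that the window shown lies inside the Gzmk gene as GENCODE bounds it. Capitals mark matches, on either strand, to the T-box motif GGTGTGA, the Runx motif TGTGGT and the AP-1 motif TGANTCA, none of which overlap each other in these windows.
Gzma: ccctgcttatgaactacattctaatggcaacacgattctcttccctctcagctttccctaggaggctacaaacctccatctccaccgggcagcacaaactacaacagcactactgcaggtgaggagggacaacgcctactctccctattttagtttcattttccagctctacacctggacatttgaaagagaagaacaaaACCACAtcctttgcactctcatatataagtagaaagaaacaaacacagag
Gzmb: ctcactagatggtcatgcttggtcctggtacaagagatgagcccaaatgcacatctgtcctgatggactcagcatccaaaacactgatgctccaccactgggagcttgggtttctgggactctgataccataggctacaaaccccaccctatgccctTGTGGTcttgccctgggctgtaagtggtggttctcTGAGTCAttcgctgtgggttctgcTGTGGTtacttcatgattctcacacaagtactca
Prf1: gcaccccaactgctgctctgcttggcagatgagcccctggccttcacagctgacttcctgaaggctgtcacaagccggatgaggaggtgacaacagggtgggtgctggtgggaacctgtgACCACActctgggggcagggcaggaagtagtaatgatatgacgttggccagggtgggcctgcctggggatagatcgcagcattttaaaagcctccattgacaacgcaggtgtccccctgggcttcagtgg
Gzmk: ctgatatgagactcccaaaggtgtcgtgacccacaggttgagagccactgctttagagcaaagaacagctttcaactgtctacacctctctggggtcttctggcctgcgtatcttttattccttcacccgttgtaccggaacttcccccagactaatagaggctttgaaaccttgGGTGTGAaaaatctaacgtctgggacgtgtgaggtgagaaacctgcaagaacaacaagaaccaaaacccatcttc

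Gzma, Gzmb and Prf1 each held a Runx match, at 50, 93 and 130 bases before the start, with a second one in Gzmb 34 bases and an AP-1 match 58 bases before its start. Gzmk held a T-box match 75 bases before the RefSeq start and none of the other motifs. Among the 32851 promoter windows of the same length, 14% held the Runx motif, 3.33% the T-box motif and 6.75% the AP-1 motif, and of the 9 members with a promoter 4, 2 and 1 did. Nkg7 was the other member with a T-box match and also held a Runx match. Such matches describe letters only. By GENCODE M21 on GRCm38, Gzma (chromosome 13, 113093825 to 113100981) and Gzmk (chromosome 13, 113171608 to 113225908) lie 70626 bases apart on the minus strand. The other genes are Gzmb (chromosome 14, 56258838 to 56262260, minus), Prf1 (chromosome 10, 61297833 to 61304680, plus), Ifng (chromosome 10, 118441046 to 118445892, plus), Nkg7 (chromosome 7, 43437073 to 43438249, plus), Ccl5 (chromosome 11, 83525778 to 83530518, minus), Fasl (chromosome 1, 161780689 to 161788495, minus), Tnf (chromosome 17, 35199381 to 35202007, minus) and Pdcd1 (chromosome 1, 94038305 to 94052553, minus).

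Gzma, Gzmb and Prf1 were at their highest in NK cells. Levels are given as CPM, the UMIs of a gene per 1000000 UMIs of the class in that library. Libraries with fewer than 20 cells of a class were left out, which leaves 11 libraries for CD8 T, 12 for CD4 T and 10 for NK cells. Gzma ran from 7472 through a median of 9353 to 13587 CPM in NK cells, from 221 through 671 to 2183 in CD8 T cells and from 0 through 61.3 to 1029 in CD4 T cells. The lowest NK library lay above the highest library of either T cell class. Prf1 ran from 95.1 through 144 to 236 CPM in NK cells, from 6.57 through 17.1 to 22.8 in CD8 T cells and from 0 to 11.8 in CD4 T cells, 6 of whose 12 libraries had no Prf1 UMI. Gzmb ran from 831 through 1473 to 2290 CPM in NK cells, from 172 through 506 to 737 in CD8 T cells and from 0 through 31.8 to 438 in CD4 T cells. The 3 genes thus kept 1 order, NK above CD8 T above CD4 T, in their medians, with CD8 T and CD4 T libraries overlapping.

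**Figure D1:**
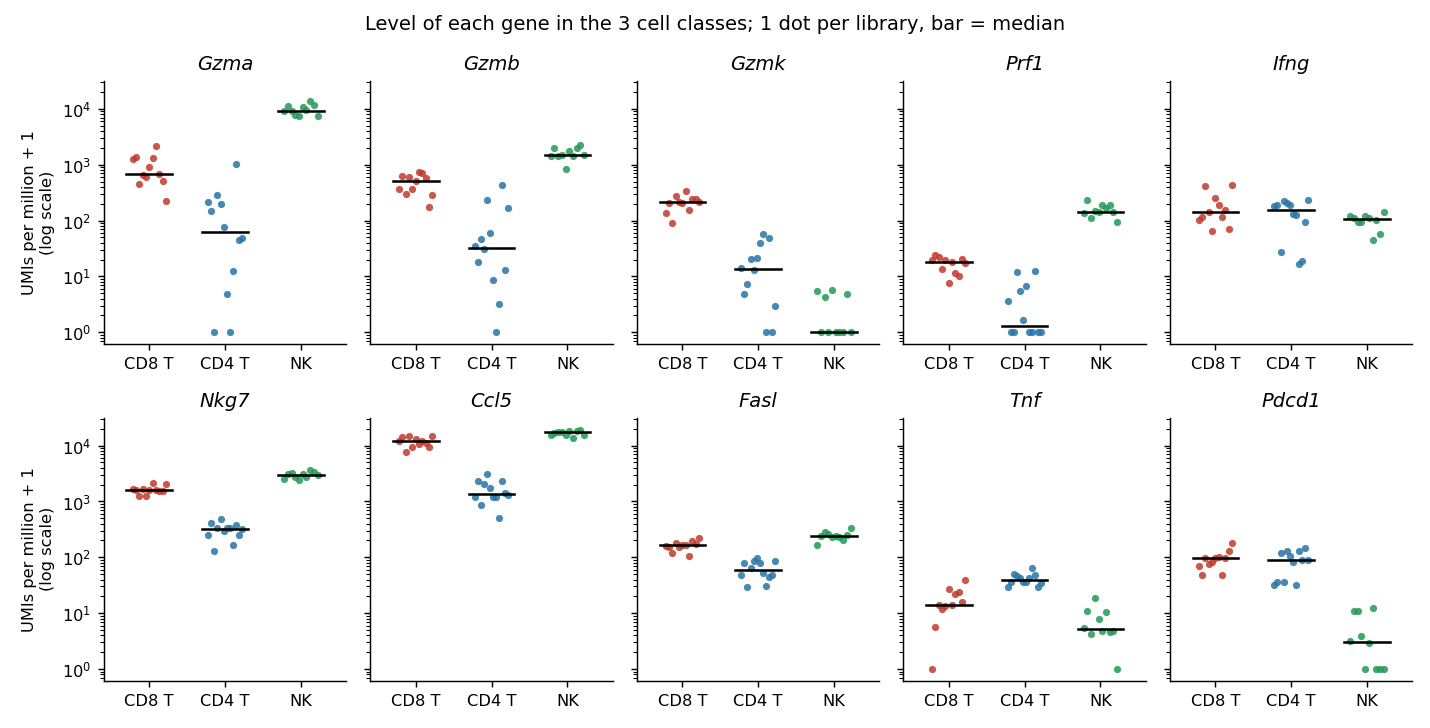
Level of each of the 10 genes (CPM + 1, log scale) in CD8 T, CD4 T and NK cells, 1 dot per library with at least 20 cells of the class and a bar at the median, so that a library without a UMI sits at 1. Gzma, Gzmb and Prf1 stand highest in NK cells, while Gzmk and Pdcd1 lie lowest there.

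Gzmk was lowest in NK cells, where Gzma was highest, and like Gzma it was higher in CD8 T than in CD4 T cells. It ran from 90.5 through 213 to 340 CPM in CD8 T cells, from 0 through 12.6 to 56.9 in CD4 T cells and from 0 to 4.64 in NK cells, where 6 of 10 libraries had no Gzmk UMI. Over all cells of a class, 371 of 688 CD8 T cells (53.9%) but 6 of 614 NK cells (0.977%), each with a single UMI, carried Gzmk. All 11 CD8 T libraries lay above the highest library of both other classes.

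Nkg7 and Ccl5 marked nearly every CD8 T and NK cell. Nkg7 had a UMI in 97.1% of CD8 T, 98.9% of NK and 50.6% of CD4 T cells, and Ccl5 in 96.9%, 98.2% and 52.8%. Nkg7 averaged 1632 ± 286 CPM in CD8 T (SD, n = 11), 2985 ± 386 in NK (n = 10) and 305 ± 97.5 in CD4 T cells (n = 12), and no NK library overlapped a CD8 T library. Ccl5 averaged 11850.1 ± 2388 CPM in CD8 T, 16969.8 ± 1705 in NK and 1602 ± 726 in CD4 T cells, with NK and CD8 T libraries overlapping. Fasl averaged 162 ± 32.4, 243 ± 46.3 and 61.1 ± 22.8 CPM in the same order, and its NK and CD8 T libraries also overlapped.

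Ifng, Tnf and Pdcd1 followed other orders. Ifng averaged 186 ± 129 CPM in CD8 T (SD, n = 11), 135 ± 80.1 in CD4 T (n = 12) and 98.8 ± 29.2 in NK cells (n = 10), and all 3 ranges overlapped. Tnf was highest in CD4 T cells, at 40.5 ± 9.98 CPM, with 16 ± 10.6 in CD8 T and 6.32 ± 4.99 in NK cells. Pdcd1 was at 91.8 ± 36.5 CPM in CD8 T and 84.3 ± 42.0 in CD4 T cells, ranges that overlap, and at 0 to 11.5 CPM in NK cells, 4 of whose 10 libraries had no Pdcd1 UMI.

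Shares of cells with a UMI depend on depth and on free RNA, so they were set beside fibroblasts, which should lack these genes, and cells gated on B cell genes (at least 3 UMIs of Cd79a, Cd79b and Ms4a1, no CD3 UMI and fewer than 3 macrophage UMIs). Median depth per library was 4443.5 to 7050.5 UMIs in CD8 T, 5118 to 8186 in CD4 T and 4222 to 6471 in NK cells, against 14402 to 22548 in fibroblasts and 14139 to 29933 in B cells. In fibroblasts, despite this depth, the share was 7.97% for Ccl5, 1.77% for Gzma, 1.31% for Nkg7 and under 1% for each of the other 7 genes. The fibroblast gate asked for over 1% of UMIs from Col1a1, Col1a2, Col3a1 and Dcn and for no UMI of the leukocyte gene Ptprc. Cells with Ptprc RNA were thus left out beforehand, so these shares may understate free leukocyte RNA. The B cell gate had no limit on matrix or epithelial UMIs, and its cells also carried RNA of other types. Dcn had a UMI in a median of 99.3% of them (4583 CPM, against 14133 in fibroblasts), Pdgfra in 49.2% and Epcam in 46.1%, so their depth and shares are not those of B cells alone. These cells showed Ccl5 in 22.3% and Gzma in 7.75%. Of their 516 cells 212 were from VCD_Low_E2_P4, and without that library the shares were 18.8% for Ccl5 and 4.28% for Gzma. Pdcd1 was seen in 2.12% of NK cells and 2.13% of these deeper cells, and Tnf in 3.91% and 3.88%. With each cell thinned to 2000 UMIs these were 0.656% and 0.196% for Pdcd1, and 0.820% and 0.588% for Tnf. The mean levels were 3.85 CPM in NK and 0.797 CPM in B cells for Pdcd1, and 6.32 and 2.66 CPM for Tnf. At such low values the NK levels were read neither as expression nor as background. Gzma was seen in 4.24% of CD4 T cells (thinned 3.46%). The thinned share in B cells was 3.92%, but 0.330%, 1 of 303 cells, without VCD_Low_E2_P4, so that the order of the thinned shares turned on this library. By level CD4 T cells were higher, with a median of 61.3 CPM against 2.59. Tnf was carried by 42.4% of the 2257 macrophages, at 88.7 to 175 CPM, above every CD8 T, CD4 T and NK library.

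Thinning each cell to 2000 UMIs, which left out 11 CD8 T, 4 CD4 T and 4 NK cells, lowered the shares and kept the contrasts. Gzma was then seen in 78.4% of NK, 20.4% of CD8 T and 3.46% of CD4 T cells, and Gzmk in 0.164%, 30.9% and 2.65%. Prf1 fell to 25.9%, 2.95% and 0.691%. Pdcd1 was seen in 14.6% of CD8 T and 15.3% of CD4 T cells and in 0.656% of NK cells.

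The differences between classes were tested within libraries. The edgeR quasi-likelihood test was fitted to 32 sums of UMIs per library and class, with a term for the library, and p-values were adjusted by Benjamini-Hochberg over 7258 genes. All 10 members were tested. Between CD8 T and CD4 T cells, 19.8% of all genes were called (adjusted p under 0.05), 8.21% higher and 11.6% lower in CD8 T cells. Of the members, 7 were higher in CD8 T cells, Tnf was lower, and Ifng and Pdcd1 were not called.

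Gzmk differed most between the T cell classes, by 3.58 on the log2 scale (SE 0.24, adjusted p = 9.59e-12), and was higher in CD8 T cells in 11 of 11 libraries. Ccl5 (2.81, SE 0.14), Nkg7 (2.34, SE 0.13), Fasl (1.27, SE 0.13) and Gzmb (2.57, SE 0.41) were also higher in 11 of 11, and Gzma (2.66, SE 0.48) and Prf1 (1.96, SE 0.42) in 10 of 11. The Prf1 value rests on few UMIs, 82 in CD8 T and 27 in CD4 T cells, and the gene was too low to be tested in fits of either T cell class alone. Tnf was lower by a log2 difference of -1.33 (SE 0.27, adjusted p = 0.000486), in 10 of 11 libraries. Its call was lost without the limits on doublets (log2 -0.79, adjusted p = 0.0603). Macrophages, which had the highest Tnf, are marked by C1qa, C1qb, Csf1r, Adgre1 and Lyz2. The summed level of these 5 genes over the 12 libraries ran from 269 through 771 to 1640 CPM in CD4 T cells, from 20.3 through 208 to 1483 in CD8 T cells and from 11034 to 16438 in macrophages. Nearly all of it in T cells was Lyz2, C1qa was at a median of 0 in both classes and C1qb in CD8 T cells, and its part in the Tnf difference was not tested. Ifng (0.24, SE 0.29, adjusted p = 0.625) was higher in 5 of 11 libraries and Pdcd1 (0.21, SE 0.18, adjusted p = 0.472) in 7 of 11.

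**Figure D2:**
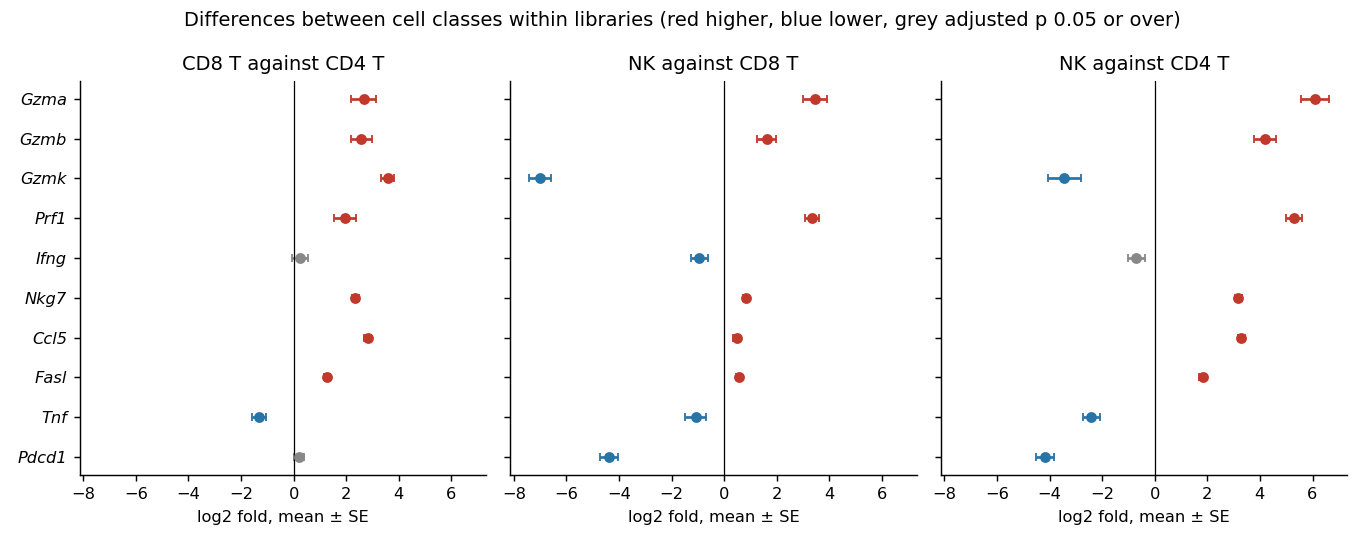
Log2 difference of each gene between cell classes within libraries (points, with SE as bars) from 32 sums, red where higher and blue where lower at an adjusted p under 0.05, grey otherwise. Gzmk and Pdcd1 point the opposite way to Gzma, Gzmb and Prf1 in both comparisons with NK cells.

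Between NK and CD8 T cells, 24% of all genes were called, 11.2% higher and 12.7% lower in NK cells, and all 10 members were called. Of these, 6 were higher in NK cells, each in 10 of 10 libraries: Gzma by 3.44 on the log2 scale (SE 0.46), Prf1 by 3.33 (SE 0.25), Gzmb by 1.62 (SE 0.36), Nkg7 by 0.84 (SE 0.12), Fasl by 0.56 (SE 0.12) and Ccl5 by 0.48 (SE 0.13). Gzmk was lower by a log2 difference of -7.02 (SE 0.42) and Pdcd1 by -4.39 (SE 0.34), each in 10 of 10. Both NK levels lie near 0, so these log2 values rest on few UMIs, 6 of Gzmk and 24 of Pdcd1 in all 614 NK cells. Ifng (-0.94, SE 0.32, adjusted p = 0.0320, lower in 8 of 10) and Tnf (-1.08, SE 0.40, adjusted p = 0.0456, lower in 7 of 10) passed narrowly. The call of Ifng was lost without VCD_Low_E2, VCD_Low_E2_P4 or VCD_E2_ICI (adjusted p = 0.0707, 0.0849 and 0.0898) and that of Tnf without any of 6 libraries, with adjusted p from 0.0655 up to 0.154. Both were lost without the limits on doublets (adjusted p = 0.233 and 0.562 by edgeR). With up to 10% mitochondrial UMIs the calls of Ifng and Ccl5 were lost (adjusted p = 0.300 and 0.105 by edgeR).

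Between NK and CD4 T cells, 36.9% of all genes were called, 16.9% higher and 20% lower in NK cells. Gzma (log2 6.10, SE 0.52), Prf1 (5.29, SE 0.30), Gzmb (4.19, SE 0.42), Ccl5 (3.30, SE 0.14), Nkg7 (3.18, SE 0.13) and Fasl (1.82, SE 0.13) were higher in NK cells. Gzmk (-3.44, SE 0.63), Tnf (-2.41, SE 0.33) and Pdcd1 (-4.18, SE 0.35) were lower, and Ifng was not called (-0.70, SE 0.32, adjusted p = 0.0863).

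Other genes of the same pathways were read from lists that share no member. Of 18 granule genes, 13 were tested, of which 5 were higher and 2 lower in CD8 T than in CD4 T cells, and 7 were higher and 1 lower in NK than in CD8 T cells. Ctsw, the protease cathepsin W of granules, was higher in CD8 T cells by 2.15 (SE 0.12) and in NK cells over CD8 T cells by 0.91 (SE 0.11), and Serpinb9, an inhibitor of granzyme B, was higher in NK cells by 1.98 (SE 0.12). Gzmm, granzyme M, was lower in NK than in CD8 T cells (log2 -2.59, SE 0.40). The median log2 difference of the 13 was 0.14 and 0.48 in these comparisons, against 0.01 and -0.02 over all genes.

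NK cells were gated on killer receptor genes (Ncr1, Klrb1c and Klre1). The 10 killer receptor genes of the list are others, and all 10 were higher in NK than in CD8 T cells, and 5 were higher and 1 lower in CD8 T than in CD4 T cells, among them Klrk1 (2.22, SE 0.16) and Klrd1 (2.15, SE 0.16), which encode receptor chains of NK cells. Of 10 transcription factors of effector cells, 4 were higher and 3 lower in CD8 T than in CD4 T cells. Eomes, which drives effector genes, was higher by 3.61 (SE 0.31) and Runx3 by 0.99 (SE 0.13). Tbx21, encoding T-bet, was higher in NK than in CD8 T cells by 1.00 (SE 0.16), and Tox, known from exhausted T cells, was lower (-1.37, SE 0.22). Of the 8 checkpoint genes tested, 3 were higher and 3 lower in CD8 T than in CD4 T cells, led by Cd160 (3.46, SE 0.27) and Ctla4 (-1.73, SE 0.14).

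Among 9 lymphocyte chemokines and cytokines tested, 2 were higher and 5 lower in CD8 T than in CD4 T cells. The lower ones included Cd40lg (-3.03, SE 0.15), Il10 (-3.71, SE 0.34) and Il2 (-2.24, SE 0.29). Of the receptors for the members' products, 2 of 10 were higher and 5 lower in CD8 T cells. Ifngr2, a chain of the interferon gamma receptor, was lower (-1.44, SE 0.22). Of 14 naive and memory genes, 3 were higher and 4 lower in CD8 T than in CD4 T cells, and 2 were higher and 10 lower in NK than in CD8 T cells. All 4 regulatory T genes tested were lower in CD8 T than in CD4 T cells, with Foxp3 seen in a median of 19.7% of CD4 T cells. Of 6 innate lymphoid genes 5 were lower in CD8 T cells, and of 10 genes induced by tissue dissociation 6 were lower, as 4 were in NK against CD8 T cells. Of 7 genes of gamma delta T and NKT cells, 3 were in the files and none of them passed the filter on low counts, so these cells were not assessed.

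The granzymes were combined differently in single cells. Of 614 NK cells, 454 (73.9%) carried Gzma and Gzmb without Gzmk, 48.3% to 90% by library, and 72 (11.7%) carried none of the 3. Of 688 CD8 T cells, 164 (23.8%) carried Gzmk alone, 119 (17.3%) Gzmb and Gzmk, 77 (11.2%) Gzma and Gzmb, 73 (10.6%) all 3, and 144 (20.9%) none. In CD4 T cells 713 of 872 (81.8%) carried none.

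Some levels were set by a few cells. In CD8 T cells, the 69 cells richest in Gzma, 10% of all, held 87.1% of the Gzma UMIs, against 50.2% for Gzmk, 29.4% for Nkg7 and 28.5% for Ccl5. In NK cells the richest 61 cells held 32.2% of Gzma. In CD4 T cells all Gzma UMIs were in 37 cells, and the highest library, VCD_High_PBDE_E2 with 1029 CPM, owed all 350 UMIs to 2 cells. Without the 2 cells richest in the members in each sum, an alternative added after the data were seen, the members called in the 3 comparisons of classes numbered 8, 10 and 9, as with these cells. Cells were ranked by UMIs summed over the members, mostly those of Ccl5 (71962 in CD8 T cells against 4849 of Gzma). The alternative therefore does not tell what the cells richest in Gzma contributed.

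Within CD8 T cells, those with Gzmk carried Pdcd1 more often. Counting all UMIs, 151 of 371 cells with Gzmk (40.7%) and 57 of 317 without (18.0%) had a Pdcd1 UMI. In cells thinned to 2000 UMIs these were 24.4% and 10.3%, with a mean difference over libraries of 15.5 ± 16.1 percentage points (SD, n = 11), and the share was higher with Gzmk in 10 of 11 libraries. The difference passed a two-sided exact sign-flip permutation test over the 11 libraries (p = 0.00391, adjusted p = 0.0313 over 8 genes). The test was chosen after the data were seen. By library the thinned share ran from 7.69% to 45.5% with Gzmk and from 0% to 22% without. Libraries needed at least 5 cells on each side, and some differences rest on few cells. With and without Gzmk, Pdcd1 was in 1 of 13 and 0 of 46 cells in VCD_Vehicle and 1 of 5 and 3 of 25 in VCD_E2. The largest differences were in VCD_High_PBDE_E2 (4 of 9 and 0 of 22) and VCD_High_PBDE_E2_P4 (5 of 11 and 0 of 12). VCD_Vehicle_NormEnv went the other way (1 of 8 and 3 of 18). Leaving out each library in turn gave differences of 12.5 to 17.5 points, with adjusted p from 0.0156 to 0.0625 by the same exact permutation test. The call was lost, at an adjusted p of 0.0625 each time, without Intact, VCD_Vehicle, VCD_E2_P4, VCD_Low_E2, VCD_Low_E2_P4 or VCD_High_PBDE_E2.

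**Figure D3:**
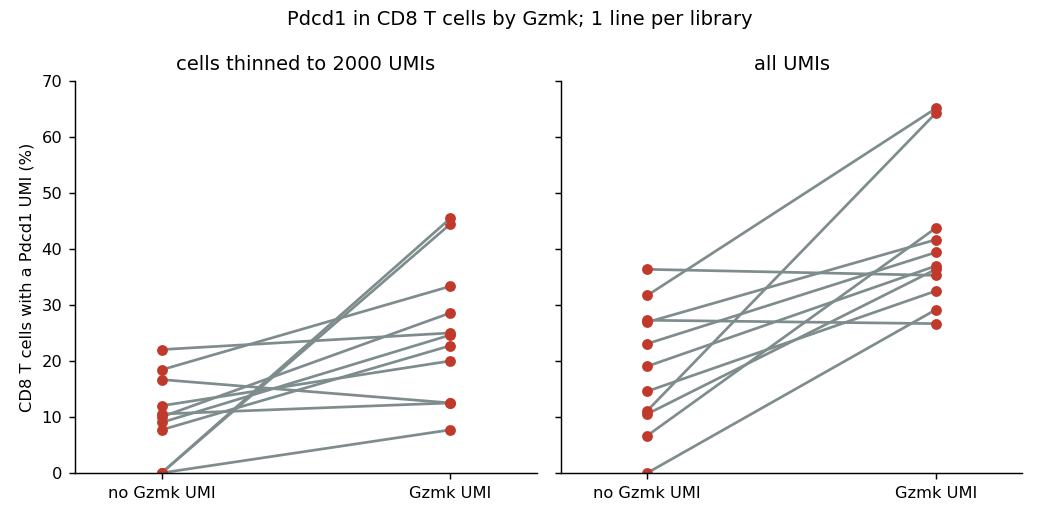
Share of CD8 T cells with a Pdcd1 UMI (%) among cells without and with a Gzmk UMI, 1 line per library, for cells thinned to 2000 UMIs (left) and for all UMIs (right). The line rises in 10 of 11 libraries on the left and in 9 of 11 on the right.

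The other 7 genes did not differ in the thinned cells by this test. Gzmb was seen in 38.3% of cells with Gzmk and 36.8% without (adjusted p = 0.538, exact permutation), Gzma in 18.2% and 21.4% (adjusted p = 0.538, exact permutation), and Ifng in 19.6% and 22.9% (adjusted p = 0.982, exact permutation). Nkg7 was seen in 96.2% and 88.0% (adjusted p = 0.323, exact permutation), although it passed with all UMIs counted (adjusted p = 0.0313, exact permutation). Prf1, Fasl and Tnf also stayed above the threshold, with Tnf in 1.44% and 4.27%.

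Across the 33 sums of the 3 classes, the genes with the most similar levels were found by Pearson's r of log2(CPM + 1) over 5315 genes of at least 20 CPM on average. The sums share libraries and fall into 3 classes, so r mostly reflects the classes and no p is given. For Gzma they were Kcnj8 (0.91), Klre1 (0.91) and Gzmb (0.90), for Gzmb they were Klre1, Gzma and Klrc1 (each 0.90), and for Prf1 they were Klre1 (0.93), Ugcg (0.91) and Txk (0.91). Nkg7 and Ccl5 were each other's nearest (0.98), followed for both by Ctsw (0.98 for Nkg7 and 0.97 for Ccl5), and Fasl was nearest to Nkg7 (0.95). Klre1 was itself used in the NK gate. Pdcd1 was nearest to Crbn (0.91), Cd3e (0.91) and Cd3g (0.91), both CD3 genes of the gates, and Gzmk to Gramd3 (0.86). Tnf was nearest to Il6ra (0.87). Ifng had no close neighbour, with Gimap9 at 0.63.

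The second question was whether hormone or PBDE changed these genes within a class. The 9 libraries of the layout were fitted with additive terms for hormone and PBDE level. E2 is the mean of E2 and E2 with P4 against no hormone, P4 is E2 with P4 against E2, and each PBDE dose is set against none. VCD_High_PBDE was left out for CD8 T cells (16 cells) and for NK cells (17), and VCD_High_PBDE_E2_P4 for NK cells (13), which leaves 8, 9 and 7 libraries for CD8 T, CD4 T and NK cells with 3, 4 and 2 residual degrees of freedom. The high dose in NK cells rests on VCD_High_PBDE_E2 alone. In every class, the high dose cannot be told apart from the sets of libraries that shared barcodes. Prf1 was too low to be tested in CD8 T and CD4 T cells, as were Gzmk, Tnf and Pdcd1 in NK cells.

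None of the members passed in any of these 12 comparisons by edgeR. Of all genes, E2 called 0% in each class, P4 called 0.336% in CD8 T, 0% in CD4 T and 0.411% in NK cells, the low dose 0%, 0.0154% and 0.301%, and the high dose 0.0672%, 0.0772% and 0.0633%. Over these 12 comparisons and the 6 described further on, 160 tests of a member were made, of which 11 had an unadjusted p under 0.05 by edgeR, and DESeq2 called 0. Of all genes, 2.7% to 10.4% had such a p in the 12 comparisons within classes and 2.83% to 30.6% in those over all cells of a library.

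**Figure D4:**
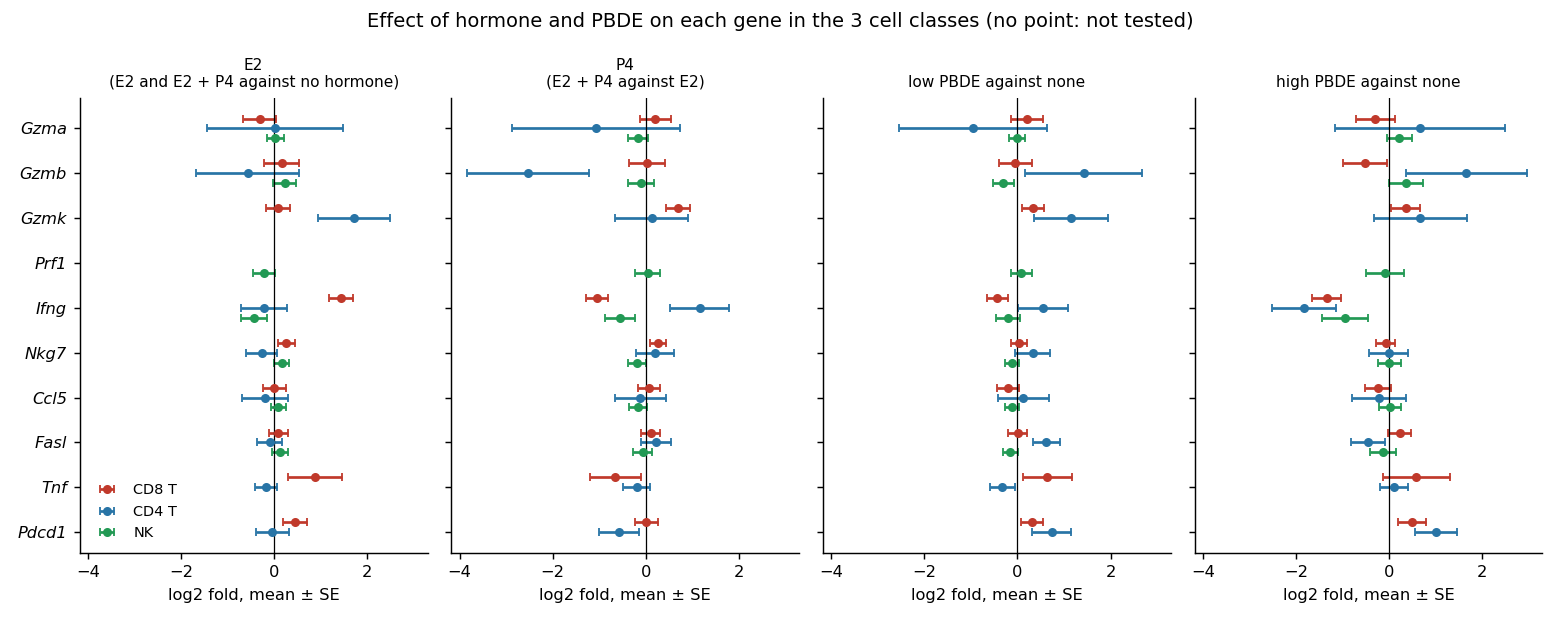
Log2 effect of E2, P4, low PBDE and high PBDE on each gene (points, with SE as bars) in CD8 T, CD4 T and NK cells, from 8, 9 and 7 libraries, with no point where a gene was too low to be tested. None passed an adjusted p of 0.05, and Ifng in CD8 T cells lies farthest from 0 relative to its SE under E2.

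Ifng in CD8 T cells was the member with the smallest p under E2. Its level was 114 CPM in VCD_Vehicle and 64.2 in VCD_Low_PBDE without hormone, 418 in VCD_E2, 251 in VCD_Low_E2 and 153 in VCD_High_PBDE_E2 with E2, and 143 in VCD_E2_P4, 190 in VCD_Low_E2_P4 and 68.7 in VCD_High_PBDE_E2_P4 with E2 and P4. All 3 libraries with E2 lay above both without hormone, while those with E2 and P4 overlapped them. The log2 effect of E2 was 1.44 (SE 0.26, unadjusted p = 8.86e-05, adjusted p = 0.132 by edgeR). With E2 libraries alone against no hormone it was 1.95 (SE 0.24, adjusted p = 0.00906 by edgeR). That fit used only VCD_Vehicle, VCD_E2, VCD_Low_PBDE, VCD_Low_E2 and VCD_High_PBDE_E2 and had fewer than the 3 residual degrees of freedom of the main fit. VCD_High_PBDE_E2 was its only high-dose library and was taken up by the PBDE term. The effect in that fit thus rests on the other libraries. The call was also made without VCD_E2_P4 (1.67, adjusted p = 0.0100) or VCD_High_PBDE_E2_P4 (1.44, adjusted p = 0.0487). Without VCD_Vehicle, which leaves VCD_Low_PBDE as the only library without hormone, the effect was 1.71. The effect was smaller without the limits on doublets (0.39, adjusted p = 0.999) and with up to 10% mitochondrial UMIs (0.51, adjusted p = 0.963). Sums of at least 10 cells, which bring VCD_High_PBDE back, gave 1.07 (adjusted p = 0.573 by edgeR). Without the PBDE term it was 1.20 (adjusted p = 0.678 by edgeR). Without VCD_Low_PBDE, which leaves VCD_Vehicle as the only library without hormone, it was 1.21. Over all alternatives the adjusted p ran from 9.62e-06 to 0.999.

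Few cells carried part of this level. In VCD_E2, 97 Ifng UMIs came from 12 of 30 CD8 T cells (40%), and the 2 richest cells held 60.8% of them, against 42% in VCD_Vehicle, where 50 UMIs came from 20 of 59 cells (33.9%). Without the 2 cells richest in the members in each sum the E2 effect was 1.51 (SE 0.28, adjusted p = 0.160 by edgeR). These cells were ranked mostly by Ccl5, which had 71962 UMIs in CD8 T cells against 1014 of Ifng. The fit therefore does not tell what the cells richest in Ifng contributed. The share of CD8 T cells with Ifng was 40% to 51.1% with E2, 27.4% to 33.9% without hormone and 26.1% to 38.5% with E2 and P4. The summed level of 10 genes induced by tissue dissociation, among them Fos and Jun, was 3932 to 5746 CPM in CD8 T cells with E2, 3428 to 3929 without hormone and 2483 to 2958 with E2 and P4. Its part in the Ifng values was not tested.

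**Figure D5:**
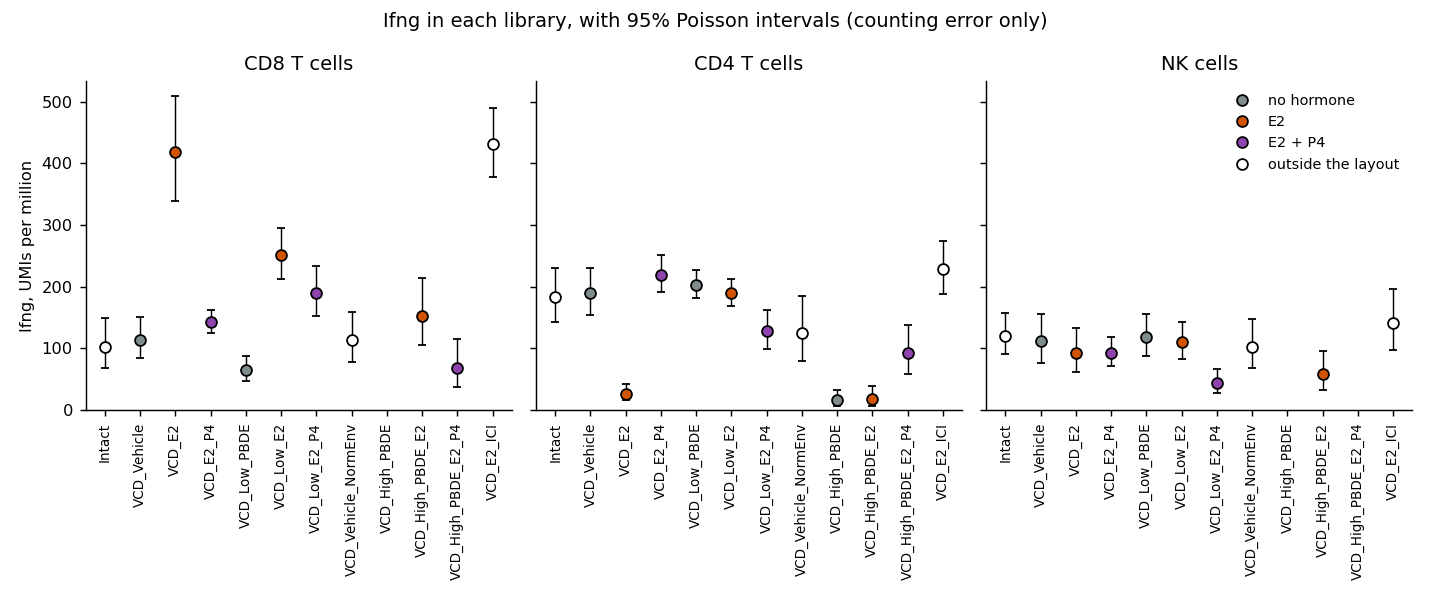
Level of Ifng (CPM) in CD8 T, CD4 T and NK cells of each library with at least 20 cells, with exact 95% Poisson intervals as bars (counting error only) and colour for the hormone. In CD8 T cells the 3 E2 libraries run from 153 to 418 and the 2 without hormone from 64.2 to 114, while in CD4 T cells VCD_E2 is at 26.5.

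Under P4, Ifng in CD8 T cells had a log2 effect of -1.05 (SE 0.24, adjusted p = 0.101 by edgeR), and it was lower with P4 than with E2 alone at each of the 3 PBDE levels. Under the high dose its effect was -1.34 (SE 0.31, adjusted p = 0.499). The high dose gave negative values also in CD4 T cells (-1.83, SE 0.68, adjusted p = 0.411) and in NK cells (-0.95, SE 0.50, adjusted p = 0.856). In CD4 T cells the levels were 15.8, 17.6 and 92.1 CPM in VCD_High_PBDE, VCD_High_PBDE_E2 and VCD_High_PBDE_E2_P4, 190, 26.5 and 219 in VCD_Vehicle, VCD_E2 and VCD_E2_P4, and 203, 190 and 128 in VCD_Low_PBDE, VCD_Low_E2 and VCD_Low_E2_P4. The high-dose libraries overlapped those without PBDE only through VCD_E2.

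The E2 effect was then compared between classes by an interaction term on 23 sums, with no gene called of 8328. This fit needs at least 2 classes of a library and so left out VCD_High_PBDE, which the fit of CD4 T cells alone kept. Ifng had an E2 effect of -0.22 (SE 0.49) in CD4 T and -0.43 (SE 0.27) in NK cells in the fits by class, and its E2 effect differed between CD8 T and CD4 T cells by 2.03 (SE 0.58, unadjusted p = 0.00293, adjusted p = 1) and between NK and CD8 T cells by -1.94 (SE 0.66, adjusted p = 1). Nkg7 differed between CD8 T and CD4 T cells by 1.02 (SE 0.23, adjusted p = 0.412) and Ccl5 by 0.93 (SE 0.21, adjusted p = 0.412). In the fits by class the E2 effects were 0.25 in CD8 T and -0.27 in CD4 T cells for Nkg7, and 0.01 and -0.19 for Ccl5. Over all alternatives the difference ran from 0.37 to 1.33 for Nkg7 and from -0.07 to 1.42 for Ccl5, with the lowest Ccl5 value from sums of at least 10 cells, which bring VCD_High_PBDE back. Without VCD_E2_P4 both passed (1.33 and 1.14, adjusted p = 0.00986 and 0.0104 by edgeR), together with Gzma. Of all genes, 5 were called in that fit. Of the 10 members, 4 had an unadjusted p under 0.05 for the difference between CD8 T and CD4 T cells and 1 for that between NK and CD8 T cells, where 3.72% and 3.82% of all genes did, and DESeq2 called 0 members in both.

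The other members varied less or with larger errors. In NK cells the log2 effects of E2, P4 and the low dose on the 7 tested genes lay between -0.55 and 0.23, with SE of 0.15 to 0.32. Gzma, the gene with the highest granzyme level there, gave 0.02 (SE 0.18) for E2, -0.16 (SE 0.21) for P4 and -0.01 (SE 0.17) for the low dose. Without VCD_Vehicle, which leaves VCD_Low_PBDE as the only NK library without hormone, Gzmb in NK cells gave 0.93 under E2, against 0.23 with it. In CD8 T cells Gzmk had an effect of 0.69 under P4 (SE 0.25, unadjusted p = 0.0162, adjusted p = 0.326 by edgeR), and it was higher with P4 than with E2 alone at 2 of 3 PBDE levels. Pdcd1 in CD4 T cells gave 1.01 (SE 0.45, adjusted p = 0.477) under the high dose. Its 3 high-dose libraries ran from 88.2 to 144 CPM and those without PBDE from 34.7 to 119. In CD4 T cells the granzyme genes had SE of 0.78 to 1.84 in these comparisons, so that only very large changes could have passed.

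Summed over all cells of a library, where fewer cells of a type and less RNA per cell cannot be told apart, E2 called 12.2% of 16233 genes, P4 0.0493%, the low dose 0% and the high dose 0.0308%, and none of the 10 members passed. The 1974 genes called for E2 fell by more than 1.5 times without any of VCD_Vehicle, VCD_E2, VCD_E2_P4, VCD_Low_PBDE, VCD_Low_E2, VCD_High_PBDE and VCD_High_PBDE_E2_P4, at the lowest to 383 without VCD_Low_PBDE. With E2 libraries alone against no hormone, edgeR called 0 genes in the 6 libraries left (3443 at an unadjusted p under 0.05), while DESeq2 called 2623 in all libraries. Tnf had an E2 effect of 0.43 (SE 0.25, adjusted p = 0.287) and passed only without VCD_Low_E2_P4 (0.63, adjusted p = 0.0396). Under the high dose 9 of the 10 had negative values, as had 49.3% of all genes, among them Ifng (-1.14, SE 0.51, adjusted p = 0.270), Nkg7 (-0.88, SE 0.41, adjusted p = 0.280) and Prf1 (-1.23, SE 0.63, adjusted p = 0.322). NK cells made up 0.560%, 1.52% and 0.651% of the cells in VCD_High_PBDE, VCD_High_PBDE_E2 and VCD_High_PBDE_E2_P4, and 1.20%, 1.31% and 2.38% in VCD_Vehicle, VCD_E2 and VCD_E2_P4, and the part of these shares was not tested. Among the list genes, Ccl3 (1.48, SE 0.22) and Ccl4 (1.12, SE 0.23), chemokines of activated leukocytes, were called higher under E2. Of 10 dissociation genes 9 were lower, as in Jun (-0.90, SE 0.12) and Atf3 (-0.85, SE 0.11). Macrophages made up 3.27%, 3.29% and 3.82% of the cells in VCD_Vehicle, VCD_Low_PBDE and VCD_High_PBDE. In the layout libraries with E2 they made up 4.27% to 9.12%, and the part of this in Ccl3, Ccl4 and Tnf was not tested. With 1 library left out, Jun passed in 9 of 9 fits. Ccl3 passed in 8, all but that without VCD_High_PBDE (adjusted p = 0.0523), and Atf3 in 8, all but that without VCD_Low_PBDE (adjusted p = 0.0506). Ccl4 passed in 3, those without VCD_Low_E2, VCD_Low_E2_P4 or VCD_High_PBDE_E2.

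Within classes, the list genes also gave few calls. In NK cells Egr1 (-1.80, SE 0.23, adjusted p = 0.00154) and Fos (-1.26, SE 0.20, adjusted p = 0.00923) were called lower under P4 by edgeR. DESeq2 gave similar effects (-1.82 and -1.26) but called neither, nor any other gene for P4 in NK cells (40 at an unadjusted p under 0.05), and both edgeR calls were lost without VCD_E2_P4 or VCD_Low_E2_P4, with adjusted p up to 0.0652 for Egr1 and 0.228 for Fos. Egr1 was also lower in the single high-dose NK library (-2.57, SE 0.40, adjusted p = 0.0345 by edgeR), a call that assumes this library to vary like the others and that was lost with DESeq2 and without VCD_E2_P4 (adjusted p = 0.102). Both are early response genes of the dissociation list, and no gene of the other 10 lists was called in the 12 comparisons within classes.

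The 3 groups outside the layout have no replicate and were not tested. With 95% exact Poisson intervals, Ifng in CD8 T cells was at 431 CPM (377 to 489) in VCD_E2_ICI, close to VCD_E2 at 418 (339 to 510), and at 103 (67.6 to 149) in Intact, beside 114 (84.6 to 150) in VCD_Vehicle and 113 (78.0 to 159) in VCD_Vehicle_NormEnv. Pdcd1 in CD8 T cells was highest in VCD_E2_ICI, at 177 CPM (143 to 216), beside 94.8 (59.4 to 143) in VCD_E2 and 47.9 (29.6 to 73.2) in VCD_Vehicle, and was at 68.4 in Intact. Gzma in CD8 T cells was lowest in VCD_E2_ICI, at 221 CPM (183 to 264), and highest in VCD_Vehicle_NormEnv, at 2183 (2016 to 2359), against 1398 (1289.6 to 1513) in VCD_Vehicle. Such intervals cover counting error only and treat all UMIs as independent. Over all CD8 T cells, however, the 69 richest held 87.1% of the Gzma UMIs. Among thinned cells, Gzma was seen in 30.8% of 26 in VCD_Vehicle_NormEnv, 32.2% of 59 in VCD_Vehicle and 6.02% of 83 in VCD_E2_ICI. What the richest cells contributed to these levels was not tested. In NK cells Gzma was at 9104 CPM in Intact and 11348.5 in VCD_Vehicle. In CD4 T cells VCD_Vehicle_NormEnv had no Gzma or Gzmb UMI in its 22 cells, where 3 UMIs would be 15.5 CPM.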

How the data were processed

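For each of the 12 libraries the authors deposited a matrix of UMI counts, genes by barcodes, made with Cell Ranger 3.1.0 on mm10 according to the submitters' processing notes and not normalized. Libraries are from mammary glands without lymph nodes, after removal of dead cells. The labels and the paper name different sequencers. Each label gave 1 library per group, so p-values rest on the spread between libraries of different treatments. Depth was 41737881 to 109224969 UMIs per library. All columns were mapped to a sample.

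A cell needed 500 genes or more, 1000 UMIs or more, and no more than 5% of its UMIs from mitochondrial genes. Gated lymphocytes had fewer than 3 UMIs of Cd79a, Cd79b and Ms4a1, of C1qa, C1qb and Csf1r, and of Epcam and Krt18, and at most 1% of UMIs from Col1a1, Col1a2, Col3a1 and Dcn. T cells had at least 2 CD3 UMIs and at least 1 of the coreceptor, and NK cells at least 2 of the NK genes. No doublet caller was run.

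Counts were summed per library and class and tested with edgeR 4.0.16 (TMM, filterByExpr, quasi-likelihood, Benjamini-Hochberg, threshold 0.05) in R 4.3.3, with DESeq2 1.42.0 as an alternative. The study tested single cells, which is not done here because cells are not replicates. Fits were tested on simulated data. Poisson and exact binomial intervals (95%) and limits from 3 counts cover counting error only.

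The members and lists were chosen with earlier results of these data known. All 10 members are named, and of each list at most the 4 genes with the smallest adjusted p per comparison that passed, and for each member the 3 genes with the most similar levels. Alternatives were another filter, gate, doublet and mitochondrial limit, another set of libraries or terms, and DESeq2. Leaving out the 2 richest cells or cells with shared barcodes, sums of at least 10 cells, B cells and list genes with a library left out, and the test of Pdcd1 by Gzmk were chosen after seeing the data. T cell receptor genes were not analysed here. A gene of the list of receptors is counted with its list but not reported by itself here.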

Additional observations from a re-analysis of the deposited data

Results flagged for a closer look

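A Pdcd1 UMI was seen in 36 of 136 T cells without a coreceptor UMI (26.5%, exact 95% interval 19.3% to 34.7%) in VCD_Low_PBDE, against 7 of 71 (9.86%, 4.06% to 19.3%) in VCD_Vehicle. Over the 12 libraries this share had a median of 22.5% and ran from 9.86%, the value of VCD_Vehicle, to 27.9%. The contrast thus came with the lowest library as control. These T cells entered no comparison of the report. The share was singled out, among those of the 10 genes in these T cells, B cells and macrophages, because its interval lay just above that of the control library. Other shares in these T cells also varied widely between libraries, from 30.9% to 77.5% for Ccl5 and from 29.8% to 66.2% for Nkg7. The groups are single libraries, so the difference was not tested across libraries, and the intervals cover counting error only.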

How the results depend on the processing

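No paired analysis was possible between treatment groups because each group is 1 library, so replicate numbers pair no samples, while the comparisons of classes and of cells with and without Gzmk were made within libraries. Without the filter on low counts, the members called numbered 1 for E2, 1 for P4 and 1 for high PBDE in CD8 T cells, 1 for E2, 3 for P4, 2 for low PBDE and 3 for high PBDE in CD4 T cells, and 5 and 1 for the difference of the E2 effect between CD8 T and CD4 T and between NK and CD8 T cells, against 0 in each. With the code at the end of the library names as a term, whose meaning is not given, 1 member was called for P4 (Ifng, -1.06, adjusted p = 0.0334 by edgeR) and 1 for high PBDE (Gzma, -1.97, adjusted p = 0.0289 by edgeR) in CD8 T cells. Of all genes, 61 and 9 were called in these 2 comparisons. With E2 libraries only, 1 was called for E2 in CD8 T cells. Leaving out each library in turn gave 0 to 1 members for E2, P4 and high PBDE in CD8 T cells, for E2 in NK cells and for E2 in all cells of a library, and 0 to 3 for the E2 effect in CD8 T against CD4 T cells. Without VCD_Low_E2 the Ifng difference in E2 effect passed (3.17, adjusted p = 0.0217 by edgeR). Without VCD_Vehicle, which leaves VCD_Low_PBDE as the only library without hormone, that of Gzmb was 3.87. Ifng under P4 in CD8 T cells passed without VCD_Vehicle (adjusted p = 0.0267) or VCD_Low_PBDE (0.0295), and under high PBDE without VCD_E2_P4 (0.0167). The cause was not tested. Of all genes, 7 were called for E2 and 20 for high PBDE in CD8 T cells without VCD_E2_P4. For the difference of the E2 effect between CD8 T and CD4 T cells, 5 were called without VCD_E2_P4, 3 of them members, and 2 without VCD_Low_E2. Over all cells of a library, E2 called 1385 without VCD_Low_E2_P4. Between classes, Ifng and Tnf in NK against CD8 T cells were lost without doublet limits (adjusted p = 0.233 and 0.562), and with up to 10% mitochondrial UMIs Ifng (0.300) and Ccl5 (0.105) were lost. Ifng in NK against CD4 T cells passed with the stricter gate (0.0261), without the filter on low counts (1.31e-07) and without VCD_E2 (0.0145). No value changed sign while past the threshold. With a library left out, the difference in Pdcd1 share by Gzmk ran from 12.5 to 17.5 points and lost its call in 6 fits (adjusted p = 0.0625). The other 191 values of this kind under another setting and 177 with a library left out kept their call or stayed within 1.5 times. Over all genes, calls without the filter on low counts numbered 61 for E2 in CD8 T cells (0 with it), 115 for P4 (20) and 37 for high PBDE (4). In CD4 T cells they numbered 90 for E2 (0), 141 for P4 (0), 41 for low PBDE (1) and 216 for high PBDE (5). For the difference of the E2 effect they numbered 46 between CD8 T and CD4 T cells (0) and 51 between NK and CD8 T cells (0). DESeq2 called 0 for P4 in NK cells (26) and 900 for high PBDE in all cells (5). Low counts of Prf1 in T cells and 2 to 4 residual degrees of freedom limit the comparisons of treatments.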

Other observations

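T cells with CD3 UMIs but none of Cd4, Cd8a or Cd8b1, 865 in all, lay between the CD4 T and CD8 T cells in their mean level of Gzma, Gzmb, Prf1, Nkg7, Ccl5 and Fasl but not of the other 4 members. Nkg7 averaged 534 ± 204 CPM (SD, n = 12 libraries) and Ccl5 3019 ± 1477 CPM in them. Gzma was uneven, from 12.3 through a median of 467 to 2147 CPM, and was seen in 80 of the 865 cells (9.25%). Gzmk was seen in 41 of these cells (4.74%), beside 6.08% of CD4 T and 53.9% of CD8 T cells. Pdcd1 was at 81.1 ± 33.7 CPM, below the means of both classes, and Tnf at 40.7 ± 18.5 CPM, beside 40.5 in CD4 T cells, differences within the spread between libraries. Cd40lg had a UMI in a median of 45.5% of them and Foxp3 in 17.2%. No test was run on this class.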
